A study of Drosophila melanogaster with 4 samples.

Results

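Isolated H3K27me1 regions are enriched regions that stand alone on a chromosome arm, with no other region of the whole-series list within 15,000 bases on either side. They were chosen from the start and end of each region on 2L, 2R, 3L, 3R and X, leaving out the first and last region of each arm. Of 10896 enriched regions on these 5 arms and 12359 in the whole list, 299 met this rule. A further 8557 arm regions had a neighbour within 15,000 bases on both sides and are called flanked here, 2030 had one on 1 side, and 10 were first or last on an arm. The rule used positions from the whole-series list, so positions, widths and scores from that list describe the isolated regions and are not tested.

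The mark was profiled by ChIP-seq, in which DNA bound to a chosen protein mark is precipitated and sequenced. All samples were wild-type Oregon-R Drosophila melanogaster larvae of instar 3, taken as whole animals, so that the lists mix the chromatin of all larval tissues. The precipitation used a rabbit polyclonal antibody from Millipore raised against a peptide of human histone H3. There were 2 ChIP replicates and 2 inputs. Each ChIP replicate has its own list of enriched regions, with 7813 regions on the arms in replicate 1 and 6477 in replicate 2. The input samples were not analysed here, so no background level stands beside these values. Nothing in the labels says whether the replicates came from separate larval collections, so their spread may be technical, and the read depth of every list is unknown.

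Methyl groups are added to lysine 27 of histone H3 by E(z), the catalytic subunit of Polycomb repressive complex 2 in flies. The trimethylated form is bound by Polycomb and marks silenced developmental genes in broad domains. The monomethylated form studied here is the first step of methylation at the same residue.

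The isolated regions stood in long stretches with little else. The empty distance to the nearer neighbour ran from 15.1 to 213 kb, with a median of 22.1 kb, against a median of 0.70 kb for flanked regions. The farther neighbour lay a median of 45.2 kb away, and in 32 of the 299 it was at least 100 kb away. Together with their empty sides the isolated regions occupied 210 stretches of 22.0 Mb in all, or 18.5% of the 5 arms, and they covered 2.74% of those stretches. All enriched regions covered 32.4% of the arms. The replicate lists were nearly bare around them: replicate 1 had another region within 15,000 bases of 5 isolated regions, and replicate 2 of 2. Replicate regions seldom lay apart from whole-series ones. Of those isolated in the list of replicate 1, 401 of 407 overlapped a whole-series region, and in replicate 2, 388 of 397 did. The bareness thus follows in large part from the rule and is no separate support. At the limit itself, the isolated regions with the nearest neighbours had 15060, 15060 and 15095 empty bases and scores of 0.40, 0.42 and 0.33. The regions left out by the narrowest margin all had 14939 empty bases and scores of 0.33, 0.31 and 0.41.

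Isolated regions were narrow. Their median width was 1409 bases (quartiles 1150 and 2034), against 2299 bases (1493 and 4389) for flanked regions. Of the isolated regions 74.2% were under 2000 bases, against 43.1% of flanked ones. Only 3 isolated regions (1.00%) reached 10,000 bases, against 554 flanked ones (6.47%). The narrowest region in either replicate list measured 1301 bases, and 125 of the isolated regions (41.8%) were narrower than that, against 17.4% of flanked regions. The plot of width and score shows the 299 regions crowded at its narrow end.

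**Figure D1:**
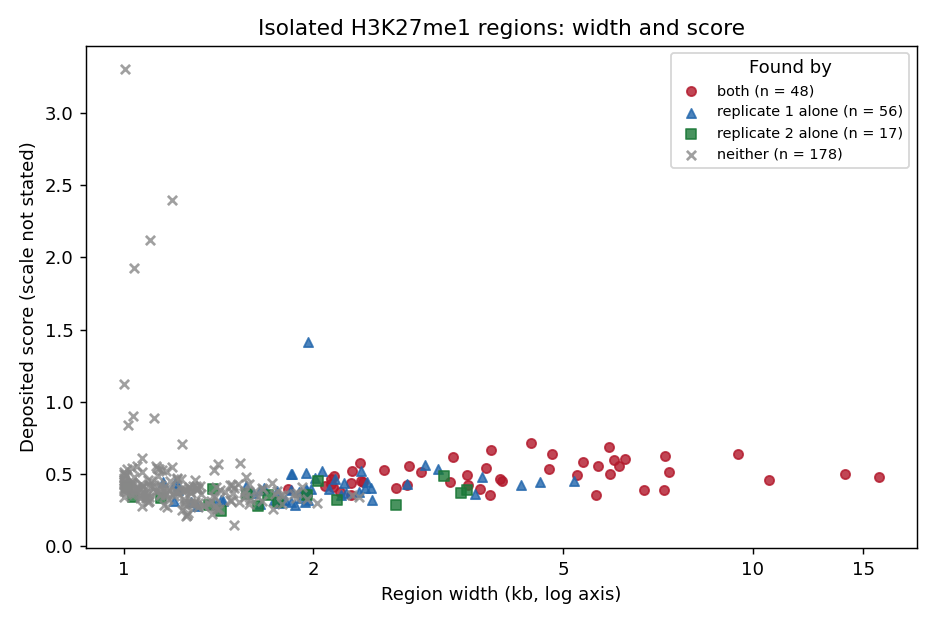
Width (kb, log axis) and deposited score of each of the 299 isolated regions, marked by the replicate lists that overlap it. Regions overlapped by both lists (n = 48) lie almost all at 2 kb or more, while the highest scores belong to regions near 1 kb that neither list overlaps.

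The score deposited for each region is the authors' own and its scale is not stated. The isolated regions had a median score of 0.40 (quartiles 0.34 and 0.46), close to the 0.41 of flanked regions (0.34 and 0.51). Among flanked regions wider meant higher, with a Spearman coefficient of 0.60 across regions. Across the isolated regions this coefficient was 0.082, and among the 222 of them under 2000 bases it was -0.38, against -0.28 for flanked regions of that width. Regions are not independent replicates, so these coefficients are descriptions. At the same width, isolated regions scored slightly higher when narrow. The median was 0.39 for isolated against 0.36 for flanked regions of 1000 to 1500 bases, 0.36 against 0.33 at 1500 to 2000 bases, and 0.43 against 0.40 at 2000 to 3000 bases. From 5000 to 10,000 bases the medians were 0.55 for both kinds, over 15 isolated and 1237 flanked regions. Weighted over 6 width classes, isolated regions lay 0.026 above flanked ones. On the scores of the replicate regions that overlap them, the same difference was 0.017 in replicate 1 and 0.0018 in replicate 2. The order turned without width matching (-0.0093), and the difference was -0.00053 when regions scoring below the median of all arm regions were left out.

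Next, the share of isolated regions that each replicate list found was compared with that of flanked regions, where found means an overlap of at least 1 bp. The whole-series list may rest on the same reads as the replicate lists, so being found is not independent evidence for a region. Replicate 1 found 104 of 299 isolated regions, or 34.8% (95% Wilson interval 29.6 to 40.3), against 60.7% (59.7 to 61.8) of flanked regions. Over all arm regions it found 58.1%. Replicate 2 found 65 of the 299, or 21.7% (17.4 to 26.8), against 49.3% (48.2 to 50.3) of flanked regions and 46.1% of all arm regions. The mean over replicates was 28.3% ± 9.2 for isolated and 55.0% ± 8.1 for flanked regions (SD, n = 2). Regions with a neighbour on 1 side lay between, at 50.5% (48.3 to 52.7) in replicate 1 and 36.2% (34.1 to 38.3) in replicate 2, with a median width of 1785.5 bases. Both lists found 48 isolated regions (16.1%, against 38.5% of all arm regions). Replicate 1 alone found 56 (18.7%, against 19.6% of all arm regions) and replicate 2 alone 17 (5.69%, against 7.62%). Neither list found 178, or 59.5%, against 34.3% of all arm regions. These intervals cover counting error only.

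The gap was much smaller at matched width. When flanked regions were weighted to the widths of the isolated ones, replicate 1 found 34.8% of isolated and 36.7% of flanked regions, a difference of -1.93 percentage points, against -26.0 without weighting. In replicate 2 the shares were 21.7% for isolated and 25.8% for flanked regions, a difference of -4.08 points, against -27.5 without weighting. The weighted difference averaged -3.00 ± 1.52 points (SD, n = 2). An exact two-sided sign-flip test over 2 replicates has 0.5 as its smallest p, so no p is attached to this difference. Among arms it was -8.11 points in replicate 1 and -8.52 in replicate 2 on 3R, and 2.57 and -6.18 on 2L. On X it was -0.75 in replicate 1 and 4.65 in replicate 2, a mean of 1.95 over 40 isolated regions, so that the sign turned there in replicate 2 alone. Over all arms without the regions scoring below the median, the mean difference was -1.14. The replicate lists also covered more of the surroundings of flanked regions: within 15,000 bases on each side, replicate 1 covered a mean of 0.11% around isolated and 29.3% around flanked regions, and replicate 2 covered 0.063% and 23.4%. This contrast follows in large part from the rule of distance, and the part of this density in the shares found was not tested.

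Within single width classes the intervals of isolated and flanked regions overlapped in both replicates, except in 2 cases among narrow regions. At 1000 to 1500 bases replicate 1 found 10 of 164 isolated regions, or 6.10% (3.35 to 10.8), against 12.6% (11.2 to 14.0) of flanked ones. At 1500 to 2000 bases replicate 2 found 6 of 58, or 10.3% (4.83 to 20.8), against 24.2% (22.1 to 26.4) of flanked ones, whereas replicate 1 found 44.8% (32.7 to 57.5) of isolated and 42.2% (39.7 to 44.7) of flanked ones. At 2000 to 3000 bases replicate 1 found 31 of 37 isolated regions, or 83.8% (68.9 to 92.3), against 72.5% (70.3 to 74.6) of flanked ones. Replicate 2 found 20 of those 37, or 54.1% (38.4 to 69.0), against 52.8% (50.3 to 55.2). Of the 18 isolated regions of 5000 bases or more, 17 were found by both lists and 1 by replicate 1 alone, against 1735 of 1791 flanked regions of that width found by both.

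**Figure D2:**
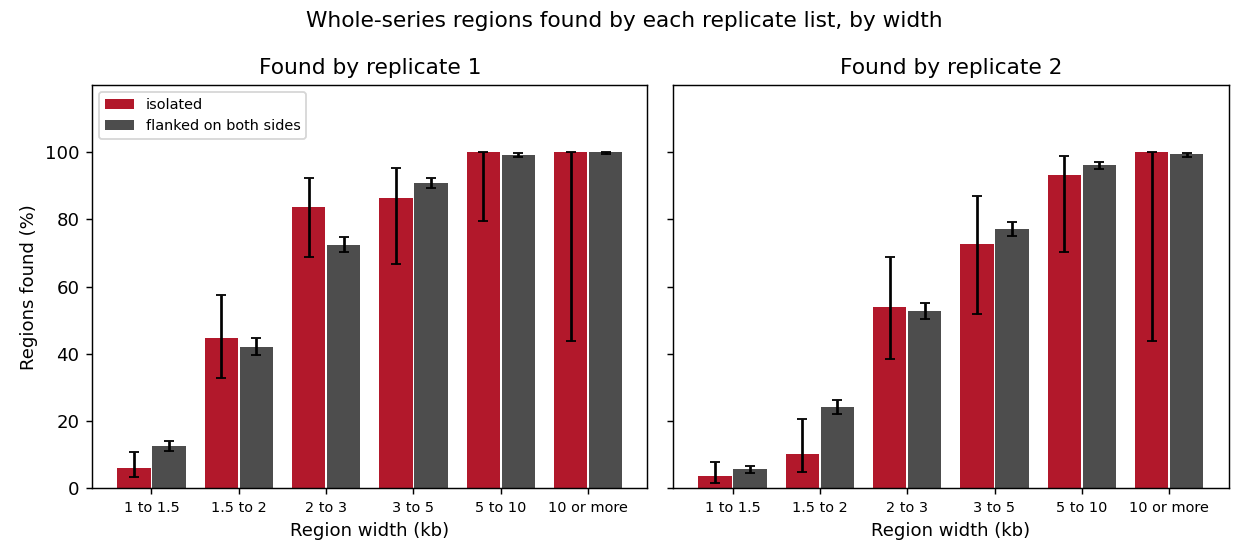
Share of regions (%) that overlap a region of replicate 1 (left) or replicate 2 (right), by region width in kb, for isolated regions and regions flanked on both sides. Error bars are 95% Wilson intervals, and wider classes have higher shares in both kinds, with 6.10% in the narrowest and 100% in the widest class for isolated regions in replicate 1.

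Before weighting, shares found and median widths were both highest where the nearer neighbour lay under 1 kb away. The share found by replicate 1 was 63.1% where the nearer neighbour lay under 1 kb away, 50.4% at 5 to 10 kb, 39.7% at 15 to 20 kb and 27.4% at 30 to 50 kb. The median width of the regions in these classes was 2443, 1828, 1495.5 and 1342.5 bases. Weighted to the widths of the isolated regions, the shares in replicate 1 were 37.0%, 36.2%, 36.4% and 31.1%. In replicate 2 the weighted shares were 26.2%, 23.8%, 21.6% and 26.8%. The class from 20 to 30 kb had weighted shares of 34.0% in replicate 1 and 16.8% in replicate 2. At 50 kb or more, with 25 regions, replicate 1 found 36.0% and replicate 2 found 24.0%, and the weighted shares were 25.8% and 15.9%. These were the lowest weighted shares of any distance class in each replicate. No interval was computed for weighted shares.

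**Figure D3:**
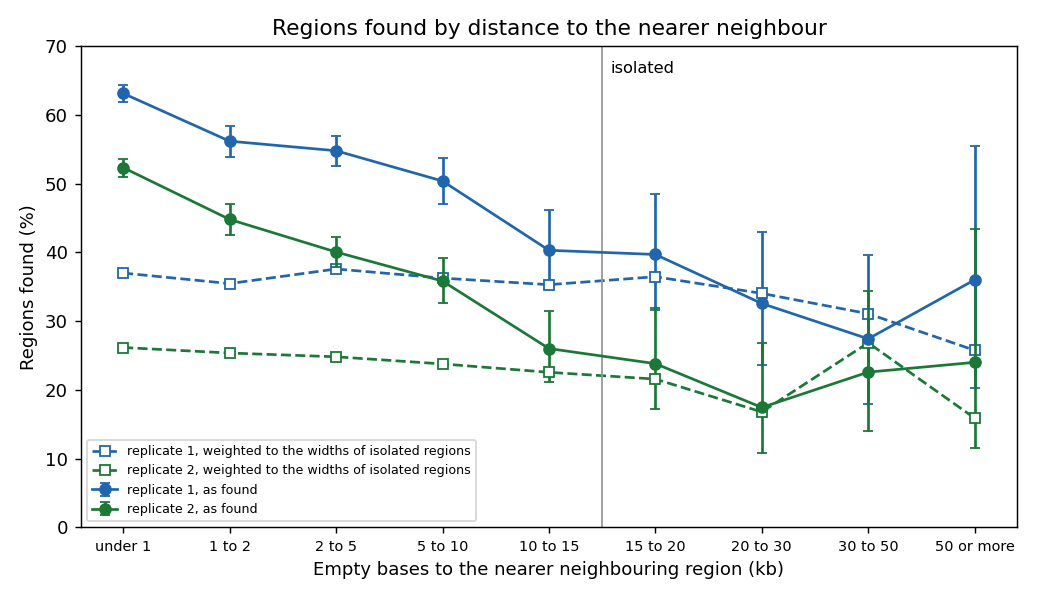
Share of whole-series regions (%) found by each replicate list against the empty distance to the nearer neighbour in kb. Filled points with 95% Wilson intervals are the shares as found, open squares are weighted to the widths of the isolated regions, and classes right of the vertical line hold the isolated regions. The filled points of replicate 1 drop from 63.1% to 27.4% at 30 to 50 kb, while its open squares stay between 25.8% and 37.6%.

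The 25 regions with 50 kb or more of empty sequence on both sides divided by width. All 9 that were at least 2000 bases wide were found by replicate 1, and 6 of these also by replicate 2. All 16 that were narrower were found by neither list. Among all isolated regions, 175 of the 222 under 2000 bases were found by neither. Of the 77 of 2000 bases or more, 47 were found by both lists and 21 by replicate 1 alone. Flanked regions also divided by width, with 2416 of the 3692 under 2000 bases found by neither. Both lists found 39.6% of flanked regions at 2000 to 3000 bases and 71.1% at 3000 to 5000 bases. For isolated regions these shares were 45.9% and 59.1%. The split at 2000 bases was seen after the values were known. The most isolated region of all measured 3997 bases on 2L, from 15499522 to 15503518, with 224 kb empty before it and 213 kb after it. It was 95.6% covered in replicate 1 and 57.4% in replicate 2, with replicate scores of 0.46 and 0.67. Next came a region of 2816 bases on 2R, from 15868567 to 15871382, with 122 and 126 kb of empty sequence. Replicate 1 covered 52.3% of it and replicate 2 74.3%, with scores of 0.44 and 0.54. A region of 1402 bases on 3R, from 24039185 to 24040586, had 119.9 and 102 kb of empty sequence and was found by neither list. The same held for a region of 1126 bases on X, from 7328636 to 7329761, with 90.6 and 190 kb of empty sequence.

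The very highest scores among the isolated regions belonged to narrow regions that were mostly not found. Of the 5 highest, 4 were 1005 to 1194 bases wide and were found by neither replicate. The first, on 2L from 17823686 to 17824690, scored 3.31, the next, on X from 21771542 to 21772735, scored 2.40, and others on 2L and 2R scored 2.12 and 1.93. The exception was a region of 1962 bases on X, from 22084198 to 22086159, which scored 1.41, was 93.2% covered in replicate 1 with a score of 2.13 there, and was not overlapped in replicate 2. The highest-scoring isolated regions of 3L (0.84) and 3R (0.90) were 1014 and 1036 bases wide and were found by neither list. Of the 20 highest, 10 were found by neither list and 9 by both, where 59.5% and 16.1% of all 299 were. At 1000 to 1500 bases neither list found 90.2% of isolated and 81.9% of flanked regions, whatever their score. The top 1% of scores on the arms began at 0.90 and held 7 isolated regions, or 2.34% of them, against 0.95% of flanked regions. These shares were not matched on width, and 54.8% of isolated but 25.3% of flanked regions were 1000 to 1500 bases wide. Among isolated regions under 2000 bases, replicate 1 found 15 of the 111 at or above their median score of 0.38 and 21 of the 111 below it. Replicate 2 found 3 and 9. Among those of 2000 bases or more the order was the other way: replicate 1 found 38 of 39 at or above their median of 0.45 and 30 of 38 below it, and replicate 2 found 31 and 22. Those of the narrow regions at or above the median score were also narrower, with a median width of 1154 bases against 1368 for those below it. Many scores recurred to 9 decimals elsewhere in the list: 101 of 164 isolated regions under 1500 bases had such a score (61.6%), against 54.8% of flanked regions of that width. Of the 10 highest isolated scores, 5 recurred in this way.

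The isolated regions that both replicates found were the wider ones. Their median width was 3795 bases and their median score 0.49. The 178 found by neither had medians of 1211 bases and 0.39. Flanked regions differed likewise, with median widths of 4929 bases when found by both and 1304 when found by neither. Among isolated regions the distance to the nearer neighbour was alike, with medians of 22.1 kb for those found by both and 23.3 kb for those found by neither. Where replicate 1 found an isolated region it covered a median of 86.0% of it, and replicate 2 covered 70.4%. For flanked regions these medians were 86.6% and 76.0%. Among the 48 found by both, the score was lower in replicate 2 than in replicate 1 for 32, with a median difference of -0.032 (SD 0.12 across regions). Flanked regions found by both were lower in replicate 2 about as often, for 2322 of 3548, with a median difference of -0.044. Only 1 of the 48 was at least 90% covered in both lists, against 429 of 3548 flanked regions found by both. That region measured 6016 bases on 2L, from 13290431 to 13296446, was covered at 100% and 93.7%, and had replicate scores of 0.63 and 0.64. The counts at 90% were not matched on width, and the flanked regions found by both were wider, with a median of 4929 bases.

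The strongest isolated regions, by the lower of their replicate scores among those at least 50% covered in both, lay on 2L, 3L, 3R and X. The first measured 4447 bases on 3L, from 13108016 to 13112462, and scored 0.91 in replicate 1 and 0.74 in replicate 2. It had 16.2 kb empty on one side and 92.4 kb on the other. A region of 2841 bases on X, from 5878023 to 5880863, scored 0.75 and 0.73. The strongest on 3R, 5908 bases from 23750903 to 23756810, scored 0.80 and 0.71 and was covered at 89.5% and 83.7%. Of the first 10 by this measure 5 lay on 2L, with lower scores between 0.59 and 0.68.

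The widest isolated regions were moderate in score. The widest measured 15.9 kb on 3L, from 4262015 to 4277882, and scored 0.61 in replicate 1 and 0.53 in replicate 2, with coverage of 83.1% and 78.4%. It lay near the limit, with 17.5 and 16.2 kb empty on its sides. A region of 14.0 kb on 3L, from 20724273 to 20738308, had 191 kb empty before it and 55.2 kb after it, and scored 0.51 and 0.65. The third, 10.6 kb on 3L from 15225326 to 15235953, was covered at 77.3% in replicate 1 and 41.7% in replicate 2. The other two of the first 5 measured 9.49 kb on 2R and 7.37 kb on 3R. The 3 widest isolated regions had a median whole-series score of 0.47, against 0.64 for the 554 flanked regions of 10,000 bases or more.

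Isolated regions were more frequent on 2L and 3R. There were 76 on 2L and 89 on 3R, or 3.30 and 3.19 per Mb, against 55 on 3L (2.24), 39 on 2R (1.84) and 40 on X (1.78). As a share of the arm's regions they made up 4.11% (3.29 to 5.11) on 2L and 3.96% (3.23 to 4.85) on 3R. On X they made up 1.71% (1.25 to 2.31). Arms with more isolated regions had fewer regions in all: 80.4 and 80.5 per Mb on 2L and 3R, and 105 per Mb on X. A sparser arm yields more isolated regions under a rule of distance, so the counts follow from density in part by construction. The share found by replicate 1 ran from 27.5% on X (16.1 to 42.8) to 38.2% on 2L (28.1 to 49.4), and by replicate 2 from 20.2% on 3R (13.2 to 29.7) to 25.5% on 3L (15.8 to 38.3), with intervals that overlap on all arms. Isolated regions on X had a median score of 0.46, against 0.37 to 0.40 on the other arms. Flanked regions differed likewise, with 0.45 on X and 0.38 to 0.40 elsewhere. At matched width, isolated regions scored above flanked ones on each arm, by 0.012 on 3L to 0.051 on 2R.

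**Figure D4:**
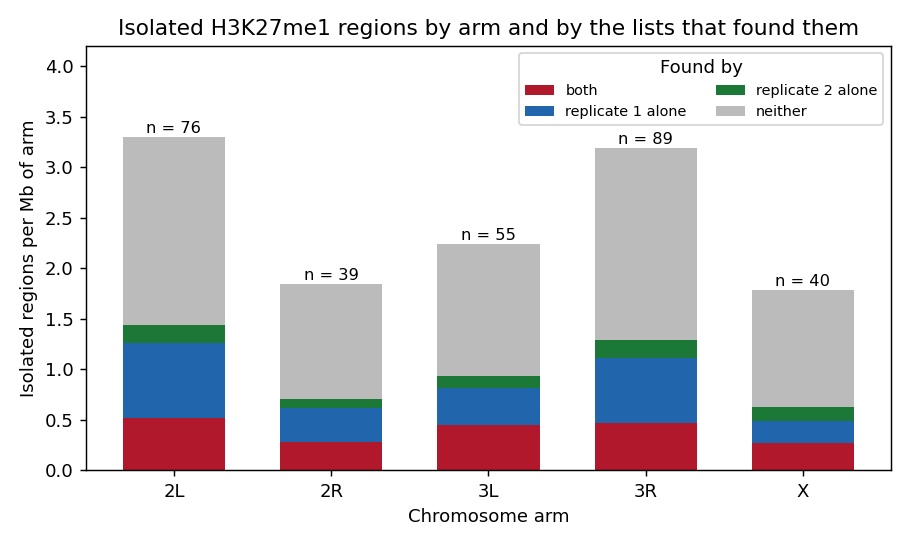
Isolated regions per Mb on each of the 5 arms, divided by the replicate lists that found them, with the number of regions above each bar. 2L and 3R stand at 3.30 and 3.19 per Mb, and the part found by neither list is the largest on every arm.

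Along the arms, 149 of the 299 isolated regions were directly followed or preceded by another isolated region. They formed 38 pairs, 15 runs of 3 and 7 runs of 4. The longest runs had 4 members on 2L, 2R, 3L and 3R and 3 on X. On 2R the run spanned from 15653310 to 15871382 in a stretch of 416 kb that held only these 4 regions, 1152 to 4736 bases wide, 2 of them found by both replicates. On 3L 4 regions shared a stretch of 347 kb, from 1009 to 10628 bases wide, and 1 was found by both. The run on X, 3 regions of 1002 to 1194 bases from 21771542 to 21828152, had whole-series scores of 0.61 to 2.40 and was found by neither list. Over 117 full bins of 1 Mb, 17 held no isolated region and the median was 2. The bin of 2L from 17 to 18 Mb held 10, of which 7 were found by neither list, and the 18 bins with 5 or more held 36.9% of the isolated regions in full bins.

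A last comparison decided isolation in one replicate list and finding in the other, so that the whole-series list played no part. With the same distance of 15,000 bases, 407 regions were isolated in the list of replicate 1 and 397 in that of replicate 2. They were wider than the isolated whole-series regions, with medians of 1819 and 1854 bases, and the replicate lists hold nothing under 1301 bases. Replicate 2 found 159 of the 407, or 39.1% (34.4 to 43.9), against 73.2% (72.04 to 74.4) of regions flanked in the list of replicate 1 and 67.5% of all its arm regions. Replicate 1 found 270 of the 397, or 68.0% (63.3 to 72.4), against 87.3% (86.3 to 88.3) of flanked regions and 84.2% of all.

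Here the gap persisted at matched width. Flanked regions weighted to the widths of the isolated ones were found at 60.7% and 80.3%, so that the difference was -21.6 points for regions of replicate 1 and -12.3 points for regions of replicate 2, a mean of -16.9 ± 6.6 (SD, n = 2 directions that share both libraries). The gap was wide below 2000 bases in both directions. At 1500 to 2000 bases replicate 2 found 30.4% (23.2 to 38.6) of regions isolated in replicate 1, against 52.7% (49.8 to 55.6) of flanked ones, and replicate 1 found 53.8% (45.3 to 62.1) of regions isolated in replicate 2, against 74.9% (72.0 to 77.6). At 2000 to 3000 bases the gap stayed wide for regions of replicate 1, at 53.8% (43.7 to 63.7) against 75.6% (73.2 to 77.8). For regions of replicate 2 the order turned there, at 94.7% (88.1 to 97.7) against 91.4% (89.6 to 93.0). At 3000 to 5000 bases the shares were 81.0% against 90.6% for replicate 1 and 95.3% against 97.9% for replicate 2. At 5000 to 10,000 bases 22 of 23 and 17 of 17 isolated regions were found, against 764 of 776 and 577 of 577 flanked ones. The gap depended on what counts as found. When 50% of the region had to be covered, the difference was -17.8 points for regions of replicate 1. For regions of replicate 2 it was -10.3 points, a mean of -14.0. When 50% of the region and 50% of its partners had to overlap, the difference was -6.79 points for regions of replicate 1 and 8.28 points for regions of replicate 2, a mean of 0.75. Around the isolated regions of replicate 1 the other list covered a mean of 2.28% of the 15,000 bases on each side, against 35.1% around flanked ones. For regions of replicate 2 these shares were 7.53% and 46.7%, and their part in the result was not tested.

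**Figure D5:**
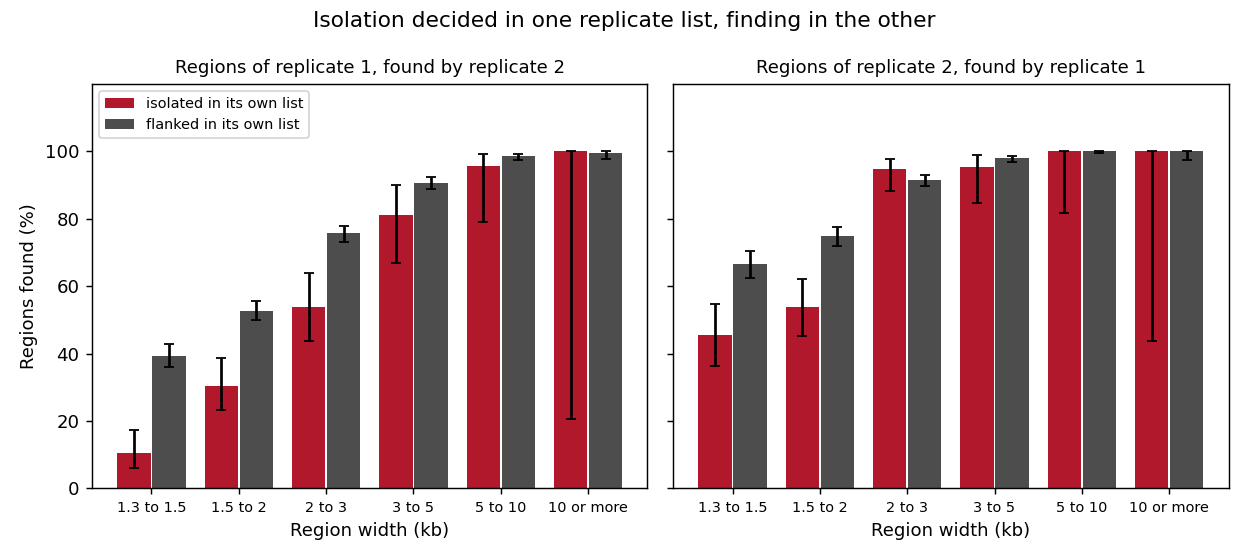
Share of the regions of one replicate list (%) that overlap a region of the other, by region width in kb, for regions isolated or flanked in their own list. Error bars are 95% Wilson intervals, and below 2 kb the isolated bars stand lower in both panels, at 10.4% against 39.4% in the narrowest class of replicate 1.

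Isolation itself depended on the list. Of the 407 regions isolated in replicate 1, 94 (23.1%) overlapped a region that was isolated in the whole-series list, and of the 397 in replicate 2, 56 (14.1%) did. Isolated regions made up 2.74% of all whole-series regions on the arms. In replicate 1, 140 overlapped whole-series regions flanked on both sides, and in replicate 2, 181 did. Among regions isolated in both their own list and the whole-series list, replicate 2 found 45.7% (36.0 to 55.8) of the 94 of replicate 1, and replicate 1 found 71.4% (58.5 to 81.6) of the 56 of replicate 2. Those that overlapped flanked whole-series regions were found at 37.1% (29.6 to 45.4) and 68.5% (61.4 to 74.8), with intervals that overlap these.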

How the data were processed

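ChIP-seq lists of enriched regions for 2 ChIP replicates and for the whole series were used as deposited. Bowtie 0.12.7 is named, with no role, per the submitters' processing notes. Positions are on FlyBase release 5, per the file headers. Which program called the regions, at what threshold, and how the replicates entered the whole-series list is not stated in the sources used. The score of each region was computed by the authors and deposited with no scale stated, per the file headers, so no fold is computed from scores. The whole-series list has 12362 lines, of which 3 are labelled as depleted and were left out. Counting them as regions gives the same 299 members.

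Distance is the number of empty bases between regions. Width matching weights flanked regions in 6 classes (from 1000, 1500, 2000, 3000, 5000 and 10000 bases) to the widths of isolated ones. It was run on simulated lists made of exact copies of whole-series regions. That check accepted errors larger than the whole-series differences in share found at matched width, so it cannot vouch for differences of that size. Intervals are 95% Wilson intervals, for counting error only, and treat regions as independent. Depth is unknown. Members, classes and named regions were chosen with earlier results of these data known. Named regions are the 5 widest, the 5 highest-scoring, the 5 with the longest empty nearer side, the 10 strongest at least 50% covered in both replicates, the highest-scoring on each arm, the 3 on either side of the distance limit and the longest run on each arm. Genes were not named and sequences not printed, since the gene table at hand follows release 6. Alternatives were other distances, overlap rules, width classes, subsets of regions, arms and single replicates. Python 3.11.15, numpy 2.4.6, pandas 2.3.3, scipy 1.17.1 and matplotlib 3.10.9 were used.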

Additional observations from a re-analysis of the deposited data

Results flagged for a closer look

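The same rule of distance was applied to the scaffolds that the comparisons above leave out, and 111 of their 1463 regions were isolated, 83 on U and 28 on placed heterochromatin. They are given because those scaffolds enter no comparison above. Their median score was 0.85 and their median width 1242 bases, against 0.52 and 1486 bases for all regions of these scaffolds. Neither replicate found 87 of the 111 (78.4%), against 63.8% of all 1463. Most of the 111 lie on U, which is named apart from the placed scaffolds. The sources used do not show that distances on U are distances along a chromosome.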

How the results depend on the processing

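No paired analysis was possible because replicate numbers are shared between the ChIP and input samples alone, and no input file was analysed here. Over 58 recomputed values, 43 moved by less than the spread between replicates or by less than 1.5 times, 11 moved further and 4 changed sign. The values with either replicate alone count among the 43. They lie within that spread by construction, so they say nothing about stability. For the share found at matched width, the difference was -26.7 points without width matching, -1.14 without regions scoring below the median and 1.95 on X alone, and -4.08 to -1.93 with either replicate alone. For the score at matched width it was 0.017 with classes of 250 bases, 0.016 among regions of at least 1301 bases, 0.017 after joining regions within 1000 bases, -0.0093 without matching and -0.00053 without regions scoring below the median. Matching on arm and width, added after the data were seen, gave 0.036. Isolated regions per Mb numbered 4.81, 1.45 and 0.73 at 10000, 20000 and 30000 bases. The width difference was -1643 bases after joining, against -890. The covered share differed by -5.19 points at 30000 bases and -20.8 without matching, and by -4.39 to -2.26 with either replicate alone. For regions isolated in a replicate list the difference was -14.0 points when 50% of the region had to be covered. It was 0.75 when 50% of both had to overlap and -21.6 to -12.3 in either direction. Causes of these shifts were not tested. Depth is unknown, and with 2 replicates no exact test could reach a p below 0.5.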
